A study of Mus musculus with 8 samples.

Results

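The keratin and keratin-associated protein genes of the mouse were followed in LaminB1-DamID lists from 3T3-L1, a mouse fibroblast cell line that becomes adipocytes when given adipogenic hormones. Members were chosen by symbol: every protein-coding gene of the annotation named Krt plus a number, or with a name that starts with Krtap. This gave 97 genes of 22367 protein-coding genes, 51 of them keratins (Krt) and 46 keratin-associated protein genes (Krtap). DamID fuses the bacterial adenine methylase Dam to a protein, here LaminB1 of the nuclear envelope, so that GATC sequences near the envelope are methylated, and free Dam serves as the control. A stretch with a raised ratio of LaminB1-Dam to Dam is called a lamina associated domain, or LAD.

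There were 8 libraries over 4 conditions, with Dam and LaminB1-Dam measured once in each. Preadipocytes were labelled untreated, at day 0. Per the paper, cells were transduced with lentivirus for LaminB1-Dam or Dam alone. Its results give 2 days from transduction to harvest for preadipocytes and 3 days for adipocytes, while its methods give 3 days for both. The 3 adipocyte conditions were stable shRNA lines taken through the same hormone cocktail to day 9, with a control non-target shRNA (the adipocyte list), with Tmem120a shRNA, or with shRNA against both Tmem120a and Tmem120b (the Tmem120a/b knockdown). The preadipocytes are not labelled with the control shRNA, so differentiation and the shRNA vector cannot be told apart in the comparison of preadipocytes with adipocytes. Both knockdowns are stable lines, with no second line of either. Each list of LADs rests on 2 libraries with no replicate, so no difference between lists can be set against a spread between replicates, no test was run, and all counts below describe these lists. The lists hold positions with no score, and the depth behind them is unknown. The cell type could not be checked from marker genes, because the lists hold no expression values.

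Keratins are the intermediate filament proteins of epithelial cells. They assemble as obligate pairs of a type I chain and a type II chain, and in the mouse the type I genes lie together on chromosome 11 and the type II genes on chromosome 15, with the type I gene Krt18 beside its type II partner Krt8. Keratin-associated proteins fill the matrix between keratin filaments in the hair shaft and fall into cysteine-rich families and families rich in glycine and tyrosine. Fibroblasts and adipocytes are mesenchymal cells that use vimentin, and most members are known as genes of epidermis, hair follicle or other epithelia.

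When members no more than 1 Mb apart were joined, they formed 4 clusters and 1 gene that stood alone. The chromosome 11 cluster ran from Krt222 to Krt42 (chr11:99094075-100131185, 1037 kb) with 27 keratins and 22 Krtap genes. The chromosome 15 cluster ran from Krt80 to Krt18 (chr15:101177875-101862457, 685 kb) with 24 keratins, among them the record named Krt72-ps. The chromosome 16 cluster ran from Krtap24-1 to Krtap11-1 (chr16:88610954-89571428, 960.5 kb) with 19 Krtap genes, and the chromosome 7 cluster held the 4 genes Krtap5-2, Krtap5-3, Krtap5-5 and Krtap5-4 (chr7:149360437-149490408, 130.0 kb). Krtap12-1 stood alone on chromosome 10. All positions are on mm9.

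DNA 100 bases upstream of the annotated start is shown for some of the members whose state differed between lists and, for contrast, for the last gene of the chromosome 16 cluster, which lay in LADs throughout. Most of the examples were picked because they carry TATAAA, which capitals mark on the gene's own strand; Krt6b and Krt1 stand for changed members without it. All sequences run 5′ to 3′ with respect to the gene:
Krtap4-6, chr11:99527275-99527374, minus strand: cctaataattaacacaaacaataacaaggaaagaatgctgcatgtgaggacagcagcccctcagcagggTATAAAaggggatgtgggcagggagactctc
Krtap4-13, chr11:99671211-99671310, minus strand: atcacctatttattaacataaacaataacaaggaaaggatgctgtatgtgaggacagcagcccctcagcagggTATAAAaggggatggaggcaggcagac
Krtap31-1, chr11:99769134-99769233, plus strand: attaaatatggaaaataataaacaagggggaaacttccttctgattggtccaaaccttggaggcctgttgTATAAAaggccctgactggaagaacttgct
Krtap31-2, chr11:99797505-99797604, plus strand: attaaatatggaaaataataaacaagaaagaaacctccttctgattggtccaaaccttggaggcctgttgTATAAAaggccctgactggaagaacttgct
Krtap9-1, chr11:99734603-99734702, plus strand: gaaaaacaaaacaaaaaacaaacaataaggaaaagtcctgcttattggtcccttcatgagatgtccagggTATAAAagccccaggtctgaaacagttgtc
Krtap5-5, chr7:149415877-149415976, minus strand: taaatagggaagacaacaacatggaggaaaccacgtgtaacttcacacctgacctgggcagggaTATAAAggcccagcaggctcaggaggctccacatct
Krt76, chr15:101723352-101723451, minus strand: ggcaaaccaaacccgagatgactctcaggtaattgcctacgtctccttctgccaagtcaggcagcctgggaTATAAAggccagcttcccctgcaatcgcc
Krt6b, chr15:101510721-101510820, minus strand: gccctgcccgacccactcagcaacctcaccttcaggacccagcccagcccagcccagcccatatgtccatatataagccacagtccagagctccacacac
Krt1, chr15:101681218-101681317, minus strand: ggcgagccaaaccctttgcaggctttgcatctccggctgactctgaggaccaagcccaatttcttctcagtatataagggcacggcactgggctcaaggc
Krtap11-1, chr16:89571429-89571528, minus strand: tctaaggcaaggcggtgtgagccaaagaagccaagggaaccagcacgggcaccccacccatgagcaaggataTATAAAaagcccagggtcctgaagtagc

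TATAAA is the core letters of the TATA box, the element close upstream of the start of many strongly tissue-restricted genes. Searched on both strands, it occurred in this window in 59 of 97 members (60.8%) against 6.06% of all protein-coding genes. It was present in 37 of 46 Krtap genes and 22 of 51 keratins. Chromosome 11 had it upstream of 21 of 22 Krtap genes and 18 of 27 keratins, and chromosome 15 upstream of 4 of 24 keratins. Where it lay on the gene's own strand, in 58 members, its first base was a median of 31 bases from the start, and in 42 of them it lay between 25 and 40 bases away. Of the 5 chromosome 15 keratins whose state differed, Krt76 had it and Krt6b, Krt6a, Krt1 and Krt77 did not, and on the other chromosomes Krt23, Krt39, Krtap3-3 and Krtap5-3 also changed without it. On chromosome 16, where every member lay in LADs in all lists, 13 of 19 genes had it. Only the exact letters TATAAA were searched, so similar runs, such as tatataag in the Krt6b and Krt1 windows, were not counted. A match of letters is a description of the window, and its absence does not show that a gene lacks a TATA box.

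The DamID method reads DNA between GATC sequences, so the borders of the lists were compared with the reference sequence. A GATC lay at 97.8% of the LAD borders in preadipocytes and 96.5% in adipocytes. In the Tmem120a knockdown the share was 98.6% and in the Tmem120a/b knockdown 98.8%. Borders of the differential regions around Krtap4-13 and Krtap9-1 are given here as examples because these genes changed in opposite directions, on the plus strand with the GATC in capitals:
Start of the region around Krtap4-13, chr11:99650274-99650313: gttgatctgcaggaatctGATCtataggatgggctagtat
End of the region around Krtap4-13, chr11:99703383-99703422: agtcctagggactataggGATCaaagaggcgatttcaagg
Start of the region around Krtap9-1, chr11:99724341-99724380: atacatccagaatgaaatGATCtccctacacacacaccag
End of the region around Krtap9-1, chr11:99750910-99750949: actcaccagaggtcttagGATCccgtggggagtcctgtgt

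The first question was how many members met a LAD in each condition. A gene was counted as in a LAD when at least 1 bp of its body overlapped one. In the preadipocyte list 25 of 97 members (25.8%) were in a LAD, beside 26.2% of all protein-coding genes. The adipocyte list gave 20 members (20.6%) beside 23.3%, and the Tmem120a knockdown list 23 members (23.7%) beside 27.5%. In these 3 lists the members' share was close to that of all genes. In the Tmem120a/b knockdown list 38 members (39.2%) were in a LAD, beside 29.5%, and with LADs under 100 kb left out 24 (24.7%), beside 20.6%. With gaps under 50 kb closed the count was 46 (47.4%), beside 30.4%. Counted by the start site, the members were 25, 20, 23 and 37 in the same order, beside 23.3%, 21.2%, 22.6% and 23.8% of all genes. The member by which the last pair of counts differs is Krt76, which had 77.2% of its body in a Tmem120a/b knockdown LAD and its start site outside it.

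The 2 kinds of gene differed. No keratin lay in a LAD in the preadipocyte or adipocyte list, beside 26.2% and 23.3% of all genes. With Tmem120a knocked down 1 of 51 (1.96%) did, beside 27.5%, and with both genes knocked down 8 (15.7%), beside 29.5%. With LADs under 100 kb left out no keratin lay in a LAD in any list, beside 20.1% to 21.8% of all genes. Of the 46 Krtap genes 25 (54.3%) were in preadipocyte LADs and 20 (43.5%) in adipocyte LADs, and 22 (47.8%) and 30 (65.2%) in the single and double knockdown. Of these, 19 were the chromosome 16 genes in every list. With them included, each Krtap share lay above that of all genes, which in the first 3 lists rests largely on this 1 locus. The chromosome 11 Krtap genes alone stood at 22.7%, 4.55% and 4.55% in the first 3 lists, below the shares of all genes. In the Tmem120a/b knockdown 11 of these 22 genes lay in LADs, above the share of all genes. On chromosome 7 the counts were 1, 0, 2 and 0 of 4 genes in list order, and Krtap12-1 was in no LAD. In all 4 lists together, 54 members (55.7%) lay in no LAD, beside 63.7% of all genes, and 19 members (19.6%) lay in a LAD in every list, beside 19.3%. The state differed among lists for 24 members (24.7%), beside 16.9% of all genes, and 13 members (13.4%) lay in a LAD in the Tmem120a/b knockdown list alone, beside 4.05% of all genes. Among genes whose state differed, that was 13 of 24 members and 905 of 3790 genes in all. With LADs under 100 kb left out, the state differed for 5 members, all in a LAD in the Tmem120a/b knockdown list alone. The matching shares of all genes were not computed at that setting, and against adipocytes alone the 5 (5.15%) stood beside 3.08%. All 5 lay in the same LAD of 205 kb on chromosome 11, so they stand for 1 locus.

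**Figure D1:**
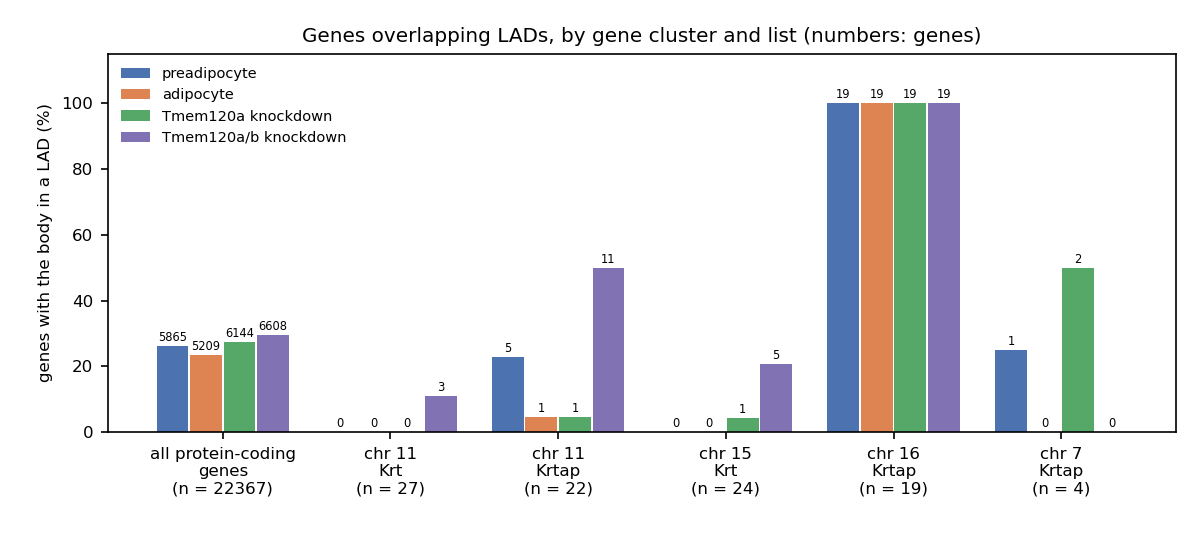
Share of genes with any part of the body in a LAD, in percent, for all protein-coding genes and for the members by cluster and kind; each bar is 1 LAD list and the number above it is the count of genes. The chromosome 16 Krtap genes stand at 100% in all lists, the keratins of chromosomes 11 and 15 at 0% in preadipocytes and adipocytes, and the chromosome 11 Krtap genes at 22.7%, 4.55% and 4.55% in the first 3 lists and at 11 of 22 genes in the Tmem120a/b knockdown.

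Members are short genes in dense arrays. The median body was 3.91 kb, against 15.4 kb for all protein-coding genes, and 0.855 kb for the Krtap genes, of which 41 of 46 have a single exon. A gene this short is seldom cut by a LAD border. A body partly inside a LAD in any list occurred for 3 members (3.09%), against 16.2% of all genes. These were Krt23 (97.9% inside), Krt76 (77.2%) and Krtap5-3 (80.8%), each in 1 list.

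**Figure D2:**
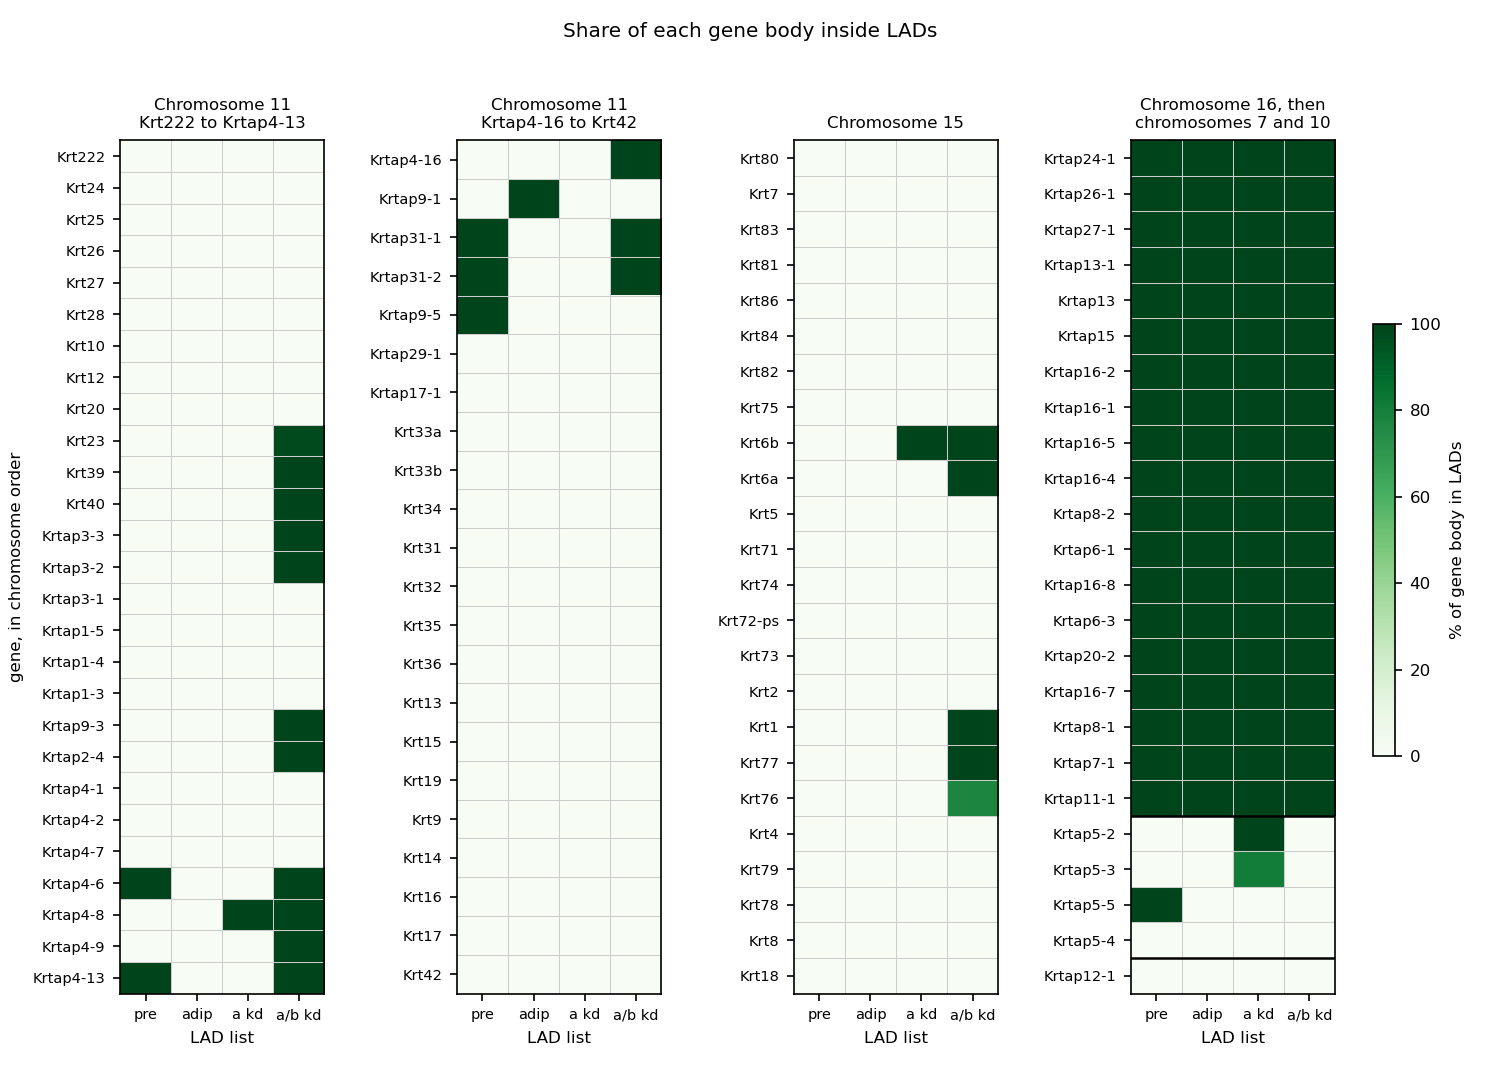
Percent of each member's gene body inside LADs, from 0 (pale) to 100 (dark green), with genes in chromosome order as rows and the preadipocyte (pre), adipocyte (adip), Tmem120a knockdown (a kd) and Tmem120a/b knockdown (a/b kd) lists as columns. Dark blocks fill all columns for the 19 chromosome 16 genes, while on chromosomes 11, 15 and 7 they fall on runs of neighbouring genes that differ from list to list.

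The second question was which members changed between the preadipocyte and adipocyte lists. In a LAD in preadipocytes and not in adipocytes were 6 members (6.19%), beside 4.81% of all genes, and in the opposite direction 1 member (1.03%), beside 1.88%. By start site the same counts of 6 and 1 stood beside 3.94% and 1.84%. With LADs under 100 kb left out both counts were 0, beside 2.98% and 2.25%, and with gaps under 50 kb closed the 1 also became 0. All 7 were Krtap genes. On chromosome 11 Krtap4-6, Krtap4-13, Krtap31-1, Krtap31-2 and Krtap9-5 left LADs, on chromosome 7 Krtap5-5 left a LAD, and Krtap9-1 entered one. Krtap4, Krtap5 and Krtap9 proteins are ultra-high-sulfur matrix proteins of the hair. No keratin changed in this comparison.

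The deposited differential regions, called released where a stretch was in a LAD of preadipocytes alone and recruited where it was in a LAD of adipocytes alone, met 6 members. Released regions met 5 members, beside 5.76% of all genes, and recruited regions met 1, beside 3.08%. A released region of 53.1 kb held Krtap4-13 (chr11:99650295-99703403). Another of 78.1 kb held Krtap31-1, Krtap31-2 and Krtap9-5 (chr11:99760177-99838232), and one of 26.1 kb held Krtap5-5 (chr7:149408204-149434258). The recruited region of 26.6 kb held Krtap9-1 (chr11:99724362-99750930). Krtap4-6 also lost its LAD of 77.2 kb (chr11:99520848-99598010), which is in the preadipocyte list and 0% in the adipocyte list, but that stretch is not among the deposited released regions. Every deposited region equals a piece left when one list is subtracted from the other, and on the released side 587 pieces no shorter than the smallest deposited one are likewise not among them.

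The recruited gene and the released genes were neighbours on chromosome 11. Krtap9-1 lay 15.6 kb from the nearest preadipocyte LAD, and Krtap31-1 lay 9.06 kb from the one adipocyte LAD of the cluster. That adipocyte LAD (chr11:99724362-99760176, 35.8 kb) and the preadipocyte LAD that starts before Krtap31-1 (chr11:99750931-99838232, 87.3 kb) overlapped, and 25.8% of the adipocyte LAD lay in preadipocyte LADs. Krtap29-1 lay 1.11 kb beyond the end of the preadipocyte LAD and was in no LAD in any list.

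The third question was how the knockdown lists compare with the adipocyte list. In a LAD in the Tmem120a knockdown and not in adipocytes were 4 members (4.12%), beside 6.13% of all genes. By start site the count was also 4, beside 3.76%, so that whether the members' share lies below or above that of all genes depends on the measure. With LADs under 100 kb left out the count was 0, beside 1.84%. The 4 members were Krtap4-8 on chromosome 11, Krt6b on chromosome 15 and Krtap5-2 and Krtap5-3 on chromosome 7. In the opposite direction was 1 member, beside 1.95% (2.44% by start site), which was Krtap9-1. In a LAD in the Tmem120a/b knockdown and not in adipocytes were 19 members (19.6%), beside 8.36%, and by start site 18 (18.6%), beside 5.28%. With LADs under 100 kb left out, the 19 fell to 5 (5.15%), beside 3.08%, and with gaps under 50 kb closed they rose to 26 (26.8%), beside 8.58%. In the opposite direction again Krtap9-1 was the 1 member, beside 2.10% (2.69% by start site). The 19 were 14 genes of chromosome 11 and 5 of chromosome 15. Both comparisons use the same adipocyte list, as does the comparison with preadipocytes.

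The 2 knockdown lists were also compared directly. In a LAD in the Tmem120a/b knockdown and not in the Tmem120a knockdown were 17 members (17.5%), beside 6.36% of all genes, and by start site 16 (16.5%), beside 4.89%. With LADs under 100 kb left out, the 17 fell to 5 (5.15%), beside 3.24%, and with gaps under 50 kb closed they rose to 25 (25.8%), beside 6.28%. In the opposite direction were 2 members, beside 4.28% (3.62% by start site). The 2 were Krtap5-2 and Krtap5-3. Krtap4-8 and Krt6b lay in a LAD in both knockdown lists and in neither of the others, a state held by 2.06% of members and 1.64% of all genes. The knockdown lists hold more and shorter LADs than the adipocyte list over the whole genome, 5723 and 6971 LADs with medians of 59.1 and 60.7 kb, against 2542 with a median of 103 kb. Outside chromosome 16, members lay in 14 LADs over the 4 lists, of which 1 reached 100 kb, and the part of LAD length in these states was not tested.

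On chromosome 11 the states followed position along the cluster. The Krtap genes occupy the middle stretch of 444 kb (chr11:99411446-99855308), with keratins on both sides. Of this stretch 49.0% lay in preadipocyte LADs and 8.07% in adipocyte LADs. The single knockdown list covered 11.1% of it and the double knockdown list 66.0%. The 12 keratins before it, from Krt222 to Krt40, span 310.4 kb, of which 0% lay in LADs in the first 3 lists and 20.9% in the Tmem120a/b knockdown. The 15 keratins after it, from Krt33a to Krt42, span 259 kb with no LAD in any list.

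**Figure D3:**
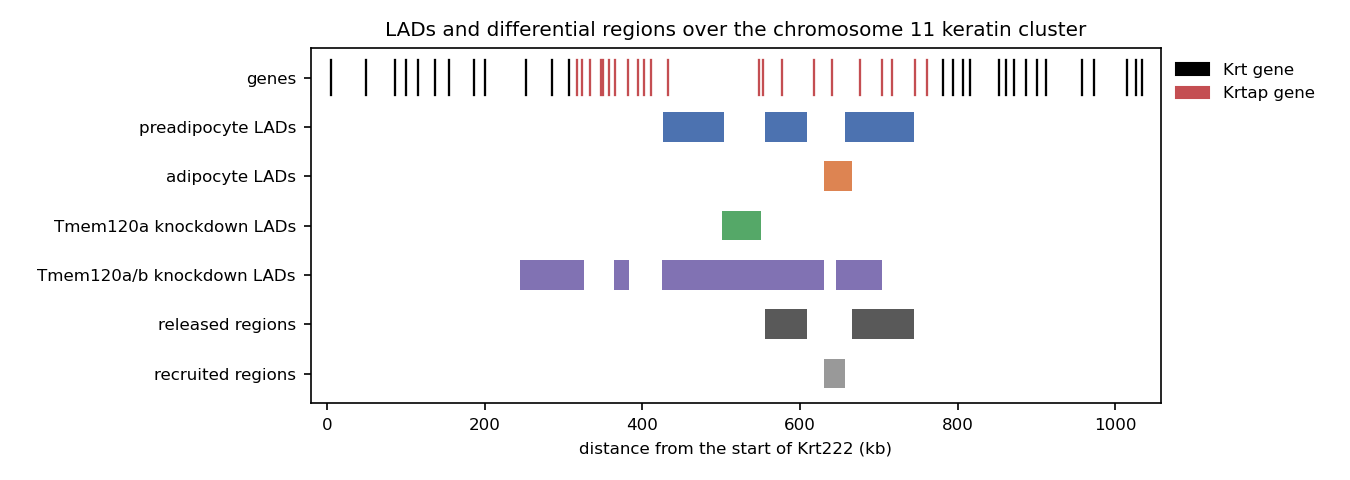
Map of the chromosome 11 cluster, with distance from the start of Krt222 in kb on the horizontal axis. Upright lines are keratin (black) and Krtap (red) genes, and bars are the LADs of each list and the released and recruited regions. Bars of all 4 lists fall on the Krtap stretch, the Tmem120a/b knockdown LADs reach into the last keratins before it, and none lies over the keratins after it.

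In the keratins before the Krtap stretch, Krt23, Krt39 and Krt40 lay in a Tmem120a/b knockdown LAD of 80.3 kb (chr11:99339605-99419938), together with Krtap3-3 and Krtap3-2. Krt39 and Krt40 are hair keratins. In the adipocyte list Krt23 was 370 kb from a LAD, Krt39 342 kb and Krt40 320 kb, so the Tmem120a/b knockdown LAD lay far from any adipocyte LAD. Krt10, the suprabasal partner of Krt1 in epidermis, Krt12 of the cornea and Krt20 of the gut epithelium lay on the same side in no LAD in any list. Their distances to the nearest Tmem120a/b knockdown LAD were 88.9, 56.0 and 40.1 kb. The inner root sheath keratins Krt25, Krt26, Krt27 and Krt28 were also in no LAD, as were Krt222 and Krt24.

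Among the 22 Krtap genes of chromosome 11, 13 were in a LAD in at least 1 list and 9 in none. Krtap4-6, Krtap4-13, Krtap31-1 and Krtap31-2 shared one state, inside LADs of the preadipocyte and Tmem120a/b knockdown lists and outside those of the adipocyte and Tmem120a knockdown lists. This state was held by 4.12% of members and 1.23% of all genes. Krtap9-5 was in a LAD in preadipocytes alone and Krtap9-1 in adipocytes alone. Krtap3-3, Krtap3-2, Krtap9-3, Krtap2-4, Krtap4-9 and Krtap4-16 were in a LAD in the Tmem120a/b knockdown alone.

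The largest LAD over these genes was one of 205 kb in the Tmem120a/b knockdown (chr11:99519502-99724826), with Krtap4-6, Krtap4-8, Krtap4-9, Krtap4-13 and Krtap4-16. Of its length 63.4% lay in preadipocyte LADs, 24.1% in Tmem120a knockdown LADs and 0.226% in adipocyte LADs. The next Tmem120a/b knockdown LAD, of 59.2 kb (chr11:99739441-99798668), held Krtap31-1 and Krtap31-2. Krtap9-1 lay in the gap between both, 4.13 kb from the nearer one. The Tmem120a knockdown list had a single LAD in the cluster, of 49.4 kb (chr11:99595101-99644532). It held Krtap4-8 and ended 1.98 kb before Krtap4-9.

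The 9 Krtap genes in no LAD formed runs. Krtap3-1, Krtap1-5, Krtap1-4 and Krtap1-3 lay between the 80.3 kb LAD and one of 19.7 kb in the Tmem120a/b knockdown (chr11:99457706-99477397, with Krtap9-3 and Krtap2-4). Krtap4-1, Krtap4-2 and Krtap4-7 lay between that LAD and the one of 205 kb. Krtap29-1 and Krtap17-1 closed the stretch. In the Tmem120a/b knockdown the 11 Krtap genes outside LADs were 4.13 to 55.9 kb from one, with a median of 12.7 kb, against a median of 219 kb for the 21 outside LADs in adipocytes. Closing gaps under 50 kb between LADs raised the chromosome 11 Krtap genes in Tmem120a/b knockdown LADs from 11 to 19. The share of all genes was 29.5% before and 30.4% after. Leaving out LADs under 100 kb lowered these Krtap genes to 5 and the chromosome 11 keratins from 3 to 0, beside 20.6% of all genes.

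After the Krtap stretch, the hair keratins Krt33a, Krt33b, Krt34, Krt31, Krt32, Krt35 and Krt36 and the epithelial keratins Krt13, Krt15, Krt19, Krt9, Krt14, Krt16, Krt17 and Krt42 were in no LAD in any list. Krt14 is the type I keratin of the basal epidermis, Krt13 that of internal stratified epithelia and Krt19 that of simple epithelia, while Krt16 and Krt17 are induced in wounded skin and Krt9 belongs to the foot pads. Distances to the nearest LAD rose from 34.3 kb at Krt33a to 286 kb at Krt42 in preadipocytes and from 112.3 to 364 kb in adipocytes. In the Tmem120a/b knockdown they rose from 73.8 to 325.5 kb.

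The 34 other protein-coding genes inside the chromosome 11 span, 33 of them records with Gm names, were counted beside the members. In a LAD were 17 of them in preadipocytes and 3 in adipocytes, and 8 and 29 in the single and double knockdown. Of the 34, 16 were matched to a RefSeq name and 1 of these, Gm11570, carries a Krtap name there. That gene was in no LAD. Genes inside 1 LAD share its borders, so neither the members nor their neighbours are independent observations.

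On chromosome 15 no LAD lay over the cluster in preadipocytes or adipocytes. The nearest LAD was 467 to 1147 kb from the members in preadipocytes and 1515 to 2177 kb in adipocytes. In the Tmem120a knockdown 10.0% of the span lay in LADs and 1 member (4.17%) was in one, beside 27.5% of all genes. In the Tmem120a/b knockdown it was 18.6% of the span and 5 members (20.8%), beside 29.5%. By start site 4 members (16.7%) were in a Tmem120a/b knockdown LAD, beside 23.8%. With LADs under 100 kb left out no member was in a LAD in either knockdown list. Krt6b lay whole in a LAD in both, of 31.9 kb in the Tmem120a knockdown (chr15:101485707-101517651) and of 77.7 kb in the Tmem120a/b knockdown (chr15:101447979-101525686). Its neighbour Krt6a lay in the second of these and 2.71 kb outside the first. Krt6a and Krt6b are near-identical type II keratins of the hair follicle and of wounded epidermis.

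A second Tmem120a/b knockdown LAD of 49.9 kb (chr15:101671466-101721396) held Krt1, the suprabasal keratin of epidermis, Krt77, and 77.2% of Krt76, a keratin of the oral palate. It was 0% covered by LADs of the other lists. Krt5, the basal partner of Krt14, lay 11.8 kb from a Tmem120a/b knockdown LAD, and Krt2, of the upper epidermis, 22.9 kb. Krt4, the partner of Krt13, lay 27.6 kb away. Krt8, with its partner Krt18 the first keratins of simple epithelia, lay 106 kb away and Krt18 137 kb. Krt7, also of simple epithelia, lay 187 kb away. All of these, with the hair keratins Krt81, Krt82, Krt83, Krt84 and Krt86, the root sheath keratins Krt71, Krt73, Krt74 and Krt75, and Krt72-ps, Krt78, Krt79 and Krt80, were in no LAD in any list. No released or recruited region met the cluster. Of the 4 other protein-coding genes in the span, 3 were matched to keratin names in RefSeq (1700011A15Rik, 4732456N10Rik and 5430421N21Rik), the last ambiguously, to a pair of names that other members hold. All 3 were in no LAD in any list, and the other gene, Gm5414, lay whole in a LAD in both knockdown lists.

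Chromosome 16 stood apart. All 19 Krtap genes lay whole in LADs in every list, as did the 14 other protein-coding genes of the span. In preadipocytes 1 LAD of 1.83 Mb covered the cluster (chr16:87930805-89764489), and in adipocytes 1 of 1.98 Mb (chr16:87793052-89774225). The LAD began 680 and 818 kb before Krtap24-1 and ended 193 and 203 kb after Krtap11-1. The Tmem120a knockdown list had 2 LADs here with a gap of 7.95 kb (chr16:89055209-89063154) between Krtap16-8 and Krtap6-3, and the Tmem120a/b knockdown list 2 with a gap of 4.001 kb (chr16:89328808-89332808) between Krtap20-2 and Krtap16-7. Neither gap held a member. In the Tmem120a knockdown the LAD ended 9.15 kb after Krtap11-1, the member closest to an outer border, and the next LAD began 14.9 kb further on.

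**Figure D4:**
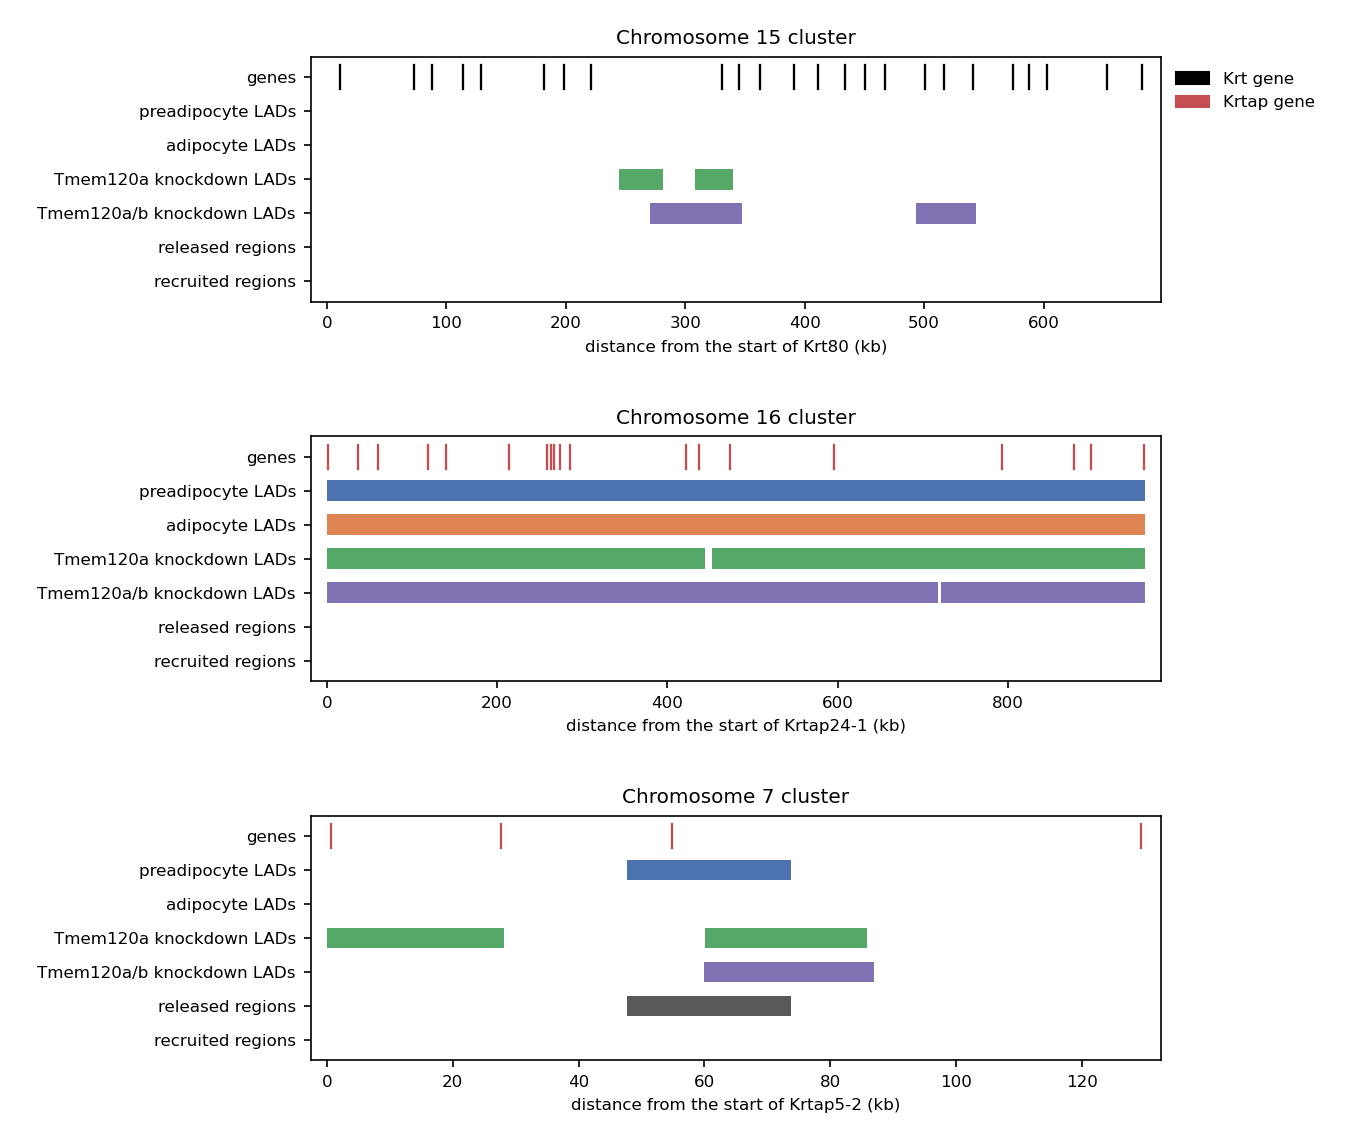
Maps of the chromosome 15, 16 and 7 clusters, with distance from the start of the first member in kb on the horizontal axes, genes as upright lines (keratins black, Krtap red) and LADs and differential regions as bars, drawn within the span of the members. The chromosome 16 span is 99.2% to 100% covered in every list, chromosome 15 has bars in the knockdown lists alone, and chromosome 7 has none in adipocytes.

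The 4 Krtap5 genes of chromosome 7 had 3 states among them. Krtap5-5 was in a LAD in preadipocytes alone, 1436 kb from a LAD in adipocytes, and 4.71 and 4.42 kb from LADs of the Tmem120a and the Tmem120a/b knockdown. Krtap5-2 (100% of the body) and Krtap5-3 (80.8%) were in a LAD of 55.8 kb in the Tmem120a knockdown alone (chr7:149332843-149388602). Krtap5-4 was in none. The Tmem120a/b knockdown LAD of 27.2 kb (chr7:149420300-149447451) covered 20.9% of the span and held no member. The preadipocyte LAD over Krtap5-5 was 26.1 kb long, so that a minimum LAD length of 30 kb removes it, and one of 100 kb leaves no member of the cluster in a LAD. Krtap12-1 on chromosome 10, a high-sulfur gene (chr10:77183331-77184001), was in no LAD and 36.8 kb from the nearest one, in the Tmem120a knockdown. In the other lists its distance was 792 to 1029 kb.

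Base composition differed between the clusters. The chromosome 16 span, which lay in LADs throughout, had 38.8% GC, and the chromosome 15 span, with no LAD in preadipocytes or adipocytes, 48.3%, against 41.8% for the 21 chromosomes of the lists. Within chromosome 11 the Krtap stretch had 42.0% GC, the keratins before it 44.2% and those after it 47.7%. The chromosome 7 span had 46.2%. GATC sequences, which set the resolution of the method, were about as dense in all of them, between 2.41 per kb on chromosome 7 and 2.69 per kb in the keratins after the Krtap stretch, against 2.51 per kb over the chromosomes. Krtap bodies held few, with a median of 1.5 against 23 in the longer keratin bodies, and 12 Krtap bodies held none, among them Krtap4-13 and Krtap9-1. Such a gene lies whole within 1 GATC fragment.

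Repeated sequence also differed, which bears on where short reads can be placed. A 32-base word was counted as repeated when it occurred elsewhere in the genome. Repeated words made up a median of 4.09% of the body in keratins and 23.2% in Krtap genes. The highest share was 89.9% in Krtap4-13, followed by 68.8% in Krtap9-1, while it was 48.6% in Krt6b and 43.7% in Krt6a. The 13 Krtap genes of chromosome 11 in a LAD in some lists had a median of 41.5% and the 9 in none a median of 14.8%. Along the Krtap stretch the share was higher inside LADs than outside in preadipocytes (27.2% and 13.0%), adipocytes (35.1% and 18.6%) and the Tmem120a/b knockdown (25.7% and 8.79%), and lower in the Tmem120a knockdown (12.2% and 20.9%). The chromosome 7 Krtap genes, 3 of which changed, had a median of 54.4%. The chromosome 16 genes had a median of 3.12%, with 9 of 19 above 10%, and repeated words made up 16.4% of that span, against 12.3% of the chromosome 11 span and 8.79% of the chromosome 15 span. Among the keratins in Tmem120a/b knockdown LADs Krt1 had 0.933%, Krt77 0.456% and Krt39 1.97%. The part of repeats in the LAD calls was not tested.

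The proteins translated from the annotated coding sequences differed in median composition between the Krtap clusters. The ranges overlap, except those of cysteine for chromosomes 7 and 16. Cysteine made up a median of 31.2% of residues for chromosome 11 Krtap genes (14.6% to 38.9%), 36.6% for chromosome 7 (24.5% to 41.5%) and 9.45% for chromosome 16 (3.23% to 16.7%), against 1.52% for keratins. Glycine and tyrosine together made up a median of 54.0% for chromosome 16 genes (5.94% to 70.4%, the highest in Krtap6-3), 20.7% for chromosome 7 (14.3% to 36.6%) and 4.36% for chromosome 11 Krtap genes (1.13% to 34.9%). The glycine and tyrosine rich families, Krtap6, Krtap8, Krtap16 and Krtap20, were thus in LADs in every list. So were their neighbours Krtap11-1, Krtap13-1 (9.52% cysteine), Krtap24-1 and Krtap26-1, which have 11.5% to 19.6% glycine and tyrosine. The same holds for Krtap27-1 (5.94%), Krtap13 (13.7%), Krtap15 (21.3%) and Krtap7-1 (29.9%). On chromosome 11 the highest share, 34.9%, was that of Krtap17-1, which lay in no LAD. Among chromosome 11 Krtap genes the median cysteine share was 31.7% for the 13 in a LAD in some lists and 30.6% for the 9 in none.

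**Figure D5:**
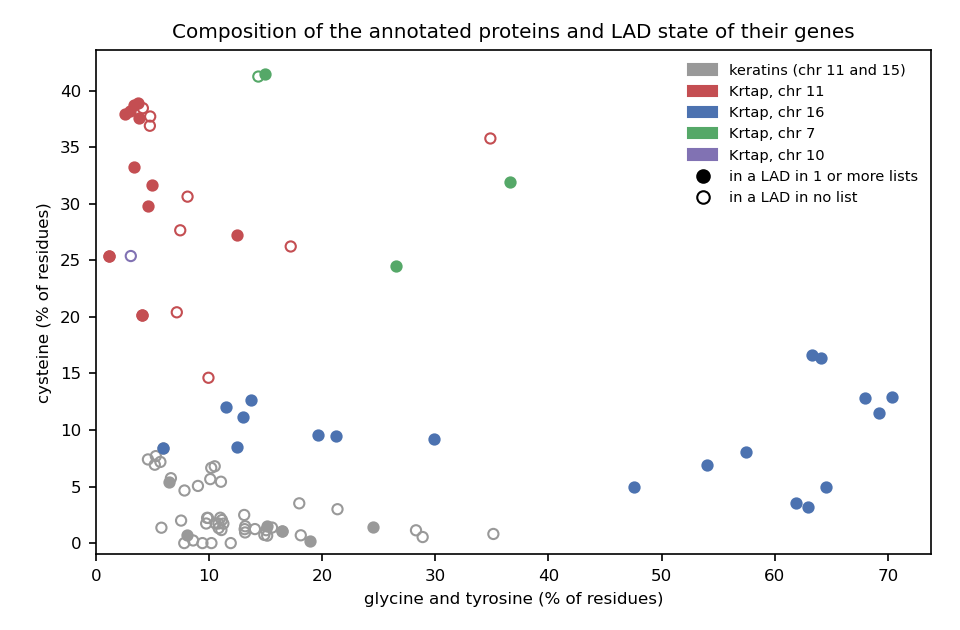
Cysteine (vertical axis) against glycine plus tyrosine (horizontal axis), each as percent of residues, for the annotated protein of each member, coloured by kind and chromosome; filled points are genes in a LAD in 1 or more lists and open points are genes in none. Chromosome 16 proteins reach 70.4% glycine and tyrosine and are all filled, and chromosome 11 Krtap proteins, filled and open, lie between 14.6% and 38.9% cysteine.

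Related gene groups were counted in the same way. None of 15 other intermediate filament genes, among them vimentin (Vim), was in a LAD in the first 3 lists, and 4 of 15 (26.7%) were in the Tmem120a/b knockdown (Nefm, Nefl, Lmnb1 and Bfsp2), beside 29.5% of all genes. By start site 2 of 15 (13.3%) were, beside 23.8%, and Nefl lies inside the Nefm record, so both share 1 locus. Nefm, Nefl and Bfsp2 are filament genes of neurons and of the eye lens, and Lmnb1 encodes a nuclear lamin. The epidermal differentiation complex on chromosome 3, which encodes loricrin, involucrin, filaggrin and the small proline-rich and late cornified envelope proteins, had 26 of its 47 gene records in preadipocyte LADs and 41 in adipocyte LADs, and 35 and 33 in those of the single and double knockdown. Those were 55.3%, 87.2%, 74.5% and 70.2% of its records, above the shares of all genes of 26.2%, 23.3%, 27.5% and 29.5%. Its count was thus higher in adipocytes than in preadipocytes, where the chromosome 11 Krtap count fell from 5 to 1. Filaggrin (Flg) has 5 records in this annotation. Of 21 desmosome and cornified envelope genes 11, 9, 12 and 12 were in a LAD in the 4 lists (52.4%, 42.9%, 57.1% and 57.1%), also above the shares of all genes. All desmocollin and desmoglein genes were in one throughout, and they lie side by side on chromosome 18, so these shares rest largely on 1 locus. Outside that locus only Perp, Tgm3 and Pkp2 were in a LAD in any list, and none of the genes was in adipocytes. Of 14 regulators of hair and epidermal keratins, such as Trp63, Foxn1 and Hoxc13, 0, 0, 1 and 2 were in a LAD by the body and 0, 0, 0 and 1 by the start site, below the shares of all genes in each list. Msx2 was 64.1% covered by a LAD with Tmem120a knocked down and 35.9% with both genes knocked down, and Lef1 30.3% in the latter.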

How the data were processed

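LaminB1-Dam and Dam libraries from 3T3-L1 cells, 1 of each per condition, were reduced by the authors to lists. Per the submitters' notes reads were mapped to mm9 with BWA, and limma is named there; versions are not given in the sources used here. Per the methods, the log ratio per DpnI fragment was segmented with DNAcopy into LADs. The deposited files hold starts and ends in bp (mm9), with no score, ratio or depth. The authors derived the released and recruited regions from these lists, by a rule not stated in full.

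Gene bodies of 22367 protein-coding genes (GENCODE vM1, NCBIM37, the same assembly as mm9) were intersected with each list in Python 3.11.15 with numpy 2.4.6, and plotted with matplotlib 3.10.9. A minimum of 1 bp counted as overlap, members up to 1 Mb apart formed a cluster, and starts are counted from 1, with the lists read as counted from 0. The interval code was tested on simulated data. Sequences were read from the reference genome, and proteins translated from the annotation. RefSeq (GRCm38.p6) gave gene names and no positions.

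Named genes were the classic epithelial keratins, the members that changed, the ends of clusters, neighbours of LAD borders and the single gene. The members, gene lists and rules were chosen with earlier results of these data known. Alternatives in LAD length, gaps, overlap, start-site window, cluster distance and cluster span were computed. No test was run, as no condition has a replicate.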

Additional observations from a re-analysis of the deposited data

How the results depend on the processing

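Of the alternatives, a minimum LAD length of 100 kb changed the counts most. It left 24 members in a LAD in the Tmem120a/b knockdown by body (24.7%, beside 20.6% of all genes under the same setting), and 24 by start site (beside 18.7%). It left 5 members in a LAD in the Tmem120a/b knockdown and not in adipocytes (beside 3.08%), and 5 in that knockdown and not in the Tmem120a knockdown (beside 3.24%). It left 0, beside 1.84% to 3.59% of all genes, in each of the other comparisons: in adipocytes and not preadipocytes, in preadipocytes and not adipocytes, in the Tmem120a knockdown and not adipocytes, in adipocytes and not either knockdown, and in the Tmem120a knockdown and not the Tmem120a/b knockdown. These changes follow from the length of the LADs around the members. The chromosome 16 counts stayed at 19 in every list under every LAD length, gap and overlap setting. With gaps under 50 kb closed, 0 members were in a LAD in adipocytes and not in preadipocytes, and 0 in adipocytes and not in the Tmem120a/b knockdown, since Krtap9-1 then lay inside joined LADs. A minimum region length of 30 kb left 0 members in recruited regions. Requiring the whole body left 1 member in a LAD in the Tmem120a knockdown and not in the Tmem120a/b knockdown. Requiring 50% of the body or LADs of at least 30 kb kept the counts over all members that were recomputed within 1.5 times. So did start sites widened by 1 or 5 kb for the 4 start-site counts, all pieces of the subtraction for the 2 counts of members in differential regions, and 500 kb or 2 Mb between neighbouring members for the number of clusters. Widening each cluster span by 100 kb on either side moved 3 of 16 span shares by over 1.5 times, all on chromosome 7: to 7.90% for preadipocytes, and to 24.7% and 8.23% for the single and double knockdown. No paired analysis was possible because each group holds 1 library and the results come from no test. Depth is unknown, so what it limits could not be read.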
